A study of Mus musculus with 6 samples.

Results

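The genes described here are 10 feedback genes and transcriptional outputs of mitogen-activated protein kinase (MAPK) signalling: Dusp1, Dusp2, Dusp4, Dusp5, Dusp6, Spry1, Spry2, Spred1, Etv4 and Etv5. They were taken by symbol from a deposited gene table of 55471 gene IDs, in which each of the 10 had a single row. The rule that picks them uses names and no measured value, but the set was proposed with earlier results of these data known. The libraries were total RNA from mouse haematopoietic stem cells, sorted as lineage-negative, Kit-positive, Sca1-positive, CD48-negative and CD150-positive cells. All 6 libraries came from mice of the genotype labelled ETV6-RUNX1, which carry the leukaemia-associated fusion in inducible form. The uninduced group was 3 libraries from mice without doxycycline, and the induced group was 3 libraries from mice fed doxycycline for 2 weeks. The controls therefore carried the transgene too, and no mice given doxycycline without the fusion were analysed here, so the effects of doxycycline and of the fusion cannot be told apart. The age of the mice and the promoter that drives the fusion were not given in the sources used here. The labels do not say whether each library came from a separate mouse, so p-values measure the spread between these libraries, which may be partly technical.

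In this pathway, growth factor and cytokine receptors activate the small GTPase Ras, which switches on the kinases Raf, MEK and ERK in turn. Active ERK then induces genes that restrain the same pathway. The Dusp genes encode phosphatases that remove the activating phosphates from MAP kinases, the Sprouty and Spred proteins act between the receptor and Raf, and Etv4 and Etv5 encode ETS transcription factors of the PEA3 group. In blood stem cells the pathway runs downstream of Kit and of cytokine receptors.

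Of the 10 genes, 9 were detected and tested, and 1 changed on the deposited scale. Spry1, a Sprouty inhibitor of Ras activation, fell from a mean of 16.6 to 4.90 TPM (a length-corrected share of a library's transcripts). The 5 Dusp genes, Spry2, Spred1 and Etv5 did not pass the test and had overlapping groups. Etv4 was listed at 0 TPM in all 6 libraries. The single call, 1 of 9 tested members, stands beside 11.5% of all 13470 tested genes called in either direction. By direction, 10.2% were called lower and 1.29% higher. The share called among the members was thus close to that background. After each rescaling described below the Spry1 call was lost, and Dusp1 was called higher instead.

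The promoter stretches of 3 genes are shown because Spry1 was the member called on the deposited scale, a call lost under each of the 3 rescalings, and because the windows of Dusp1 and Dusp5 were the ones that held a searched motif. The sequences are RefSeq's, build GRCm38.p6, written 5′ to 3′ on the gene's own strand toward the RefSeq start. Each stops where a GENCODE exon of the gene begins, which for Dusp1 and Dusp5 is before the RefSeq start. Capitals mark a CRE (TGACGTCA, bound by CREB and ATF factors) in Dusp1 and 2 CArG boxes (bound by serum response factor) in Dusp5.
Spry1 (chr3:37639697-37639946, plus strand): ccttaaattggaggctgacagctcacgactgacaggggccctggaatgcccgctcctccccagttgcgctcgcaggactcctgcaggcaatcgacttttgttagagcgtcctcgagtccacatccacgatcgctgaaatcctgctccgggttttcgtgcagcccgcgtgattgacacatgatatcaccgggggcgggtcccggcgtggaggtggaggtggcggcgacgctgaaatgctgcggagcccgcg
Dusp1 (chr17:26508520-26508722, minus strand): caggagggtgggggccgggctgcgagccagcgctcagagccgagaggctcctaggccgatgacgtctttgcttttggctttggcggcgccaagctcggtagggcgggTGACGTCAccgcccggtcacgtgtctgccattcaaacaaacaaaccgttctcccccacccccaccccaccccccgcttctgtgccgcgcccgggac
Dusp5 (chr19:53528895-53529108, plus strand): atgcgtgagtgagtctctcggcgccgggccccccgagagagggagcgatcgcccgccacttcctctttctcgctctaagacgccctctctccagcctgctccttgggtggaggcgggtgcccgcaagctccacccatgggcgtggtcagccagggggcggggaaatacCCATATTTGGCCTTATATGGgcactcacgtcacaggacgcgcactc

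RefSeq promoter windows of 300 bases, 250 before and 50 after the start, were found for 8 of the 10 genes, with 9 windows in all since Etv5 has a pair of starts. The CRE was present in 1 of the 9 windows and in 1.79% of 32851 promoter windows of the same length. In Dusp1 it begins at -143, counted, like the distances below, from the RefSeq start. The CArG box was present in 1 of the 9 windows and in 1.63% of all windows. The matches in Dusp5 are CCATATTTGG at -82 and CCTTATATGG at -72, directly next to each other. An AP-1 motif (TGANTCA, in which N is any base) and an ETS motif (CCGGAAGT) were in none of the 9 windows, against 7.81% and 3.89% of all windows. Both strands were searched. Absence of a match says only that these letters are not in these windows.

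The libraries differed between the groups in ways that bear on the scale. Nuclear protein-coding genes held 26.6% to 32.9% of the TPM in uninduced and 20.5% to 23.2% in induced libraries, and the median log2 change over all tested genes was -0.35. On the scale of TPM divided by median-of-ratios size factors the median was 0.0032. Changes are given for the TPM as deposited. A value described as rescaled, with no other method named, is on the median-of-ratios scale. Stem cell markers were present: Procr lay between 39.0 and 113 TPM and Mecom between 50.6 and 87.2 TPM. Of 17 proliferation genes 15 were called lower, including Birc5, Top2a, Mcm5 and Mki67, and their summed level was 542 to 638 TPM in uninduced and 119 to 155 TPM in induced libraries. Of 9 tested erythroid markers 6 were called higher, led by Hbb-bs, Hba-a1, Hba-a2 and Alas2, and 1 lower (Car2, named after its values were seen). Their summed level was 395 to 467 TPM in uninduced and 638 to 744 TPM in induced libraries, while Car1 was at or near 0. Most of the uninduced sum was Car2, at 340 to 408 TPM there and 235 to 276 TPM in induced libraries. Of 5 tested megakaryocyte markers 2 were called higher (Ppbp and Pf4) and 1 lower (Gp9), with summed levels of 102 to 135 and 119 to 129 TPM and Treml1 listed at 0. When single libraries were left out, Pf4 passed only without uninduced replicate 2, and Gp9 did not pass without uninduced replicate 1, uninduced replicate 2 or induced replicate 3. Of 6 tested granulocyte and monocyte markers 1 was called higher (Prtn3), and the summed levels overlapped at 237 to 284 and 234 to 285 TPM. The median log2 change of this list was -0.62. Prtn3 and Lyz2 had positive log2 changes (1.12 and 0.44). Elane (-1.15), Mpo (-1.10), S100a9 (-0.67) and S100a8 (-0.56) had negative ones, not called and named after their values were seen. Of 7 T and NK cell markers, Cd3e, Cd3d and Cd8a were listed at 0 in all 6 libraries, and Nkg7, at 5.84 to 15.8 TPM in uninduced libraries, was listed at 0 in all induced ones. Of 8 B cell markers 6 were listed at 0 throughout, Cd79a and Pax5 among them. Cd79b, named after its values were seen, was at 4.21, 9.86 and 7.06 TPM in uninduced libraries. In induced libraries Cd79b was at 3.85, 3.11 and 3.59 TPM, and it was not called (log2 change -0.77, limma adjusted p 0.197). Of 10 stem cell markers 3 were called higher and 3 lower, Ly6a, Procr and Hlf in the former group and Ctnnal1 and Kit among the latter, of which Hlf was named after its values were seen. After rescaling the calls of Car2 (limma adjusted p 0.438), Gp9 (0.0623), Ctnnal1 (0.113) and Kit (0.224) were lost. Lyz2 (limma adjusted p 0.0130) and Mecom (0.0141) were called higher there, Lyz2 being named after its values were seen. When single libraries were left out, Ctnnal1 passed only without uninduced replicate 1, and Prtn3 did not pass without induced replicate 1 or 2. In bulk samples, fewer cells of a type and less RNA per cell cannot be told apart, and the part of these differences in the results below was not tested.

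Sprouty and Spred proteins were the members nearest to the receptor. Spry1 (ENSMUSG00000037211, chr3:37639947-37644598, plus strand, 2 exons in its longest transcript, GENCODE M21 on GRCm38) was at 8.80, 26.5 and 14.4 TPM in uninduced replicates 1, 2 and 3. It was at 3.16, 6.79 and 4.76 TPM in the induced replicates. The groups did not overlap, and the uninduced libraries differed widely among themselves. Spry1 was the 1 member of 9 without overlap, beside 33.1% of all tested genes, 28.2% with induced libraries lower and 4.83% with induced libraries higher. The log2 change of Spry1 was -1.49 (SE 0.41, 95% interval -2.41 to -0.58) with a limma adjusted p of 0.0446. After median-of-ratios scaling the change was -1.13 (95% interval -2.06 to -0.20), the adjusted p was 0.149 and the groups overlapped, since uninduced replicate 1 came to 7.33 and induced replicate 2 to 8.23 scaled TPM. The call also rested on single libraries: it held without uninduced replicate 1 (adjusted p 0.0437), and was lost when any of the other 5 libraries was left out, with log2 changes of -1.11 to -1.72 and adjusted p of 0.0824 to 0.149.

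Spry2 (ENSMUSG00000022114, chr14:105891947-105896819, minus strand), the other Sprouty gene of the set, was at 12.2, 15.0 and 7.08 TPM in uninduced and at 10.1, 5.19 and 11.4 TPM in induced libraries. The groups overlapped through most of their range. Its log2 change was -0.33 (95% interval -1.16 to 0.49, limma adjusted p 0.594), and 0.034 after median-of-ratios scaling. The interval includes a fall of the size of the median gene and no change alike. Spred1 (ENSMUSG00000027351, chr2:117121374-117182279, plus strand), whose protein brings the Ras GTPase-activating protein neurofibromin to the membrane, was at 15.0, 20.1 and 27.3 TPM in uninduced and at 15.2, 15.2 and 13.3 TPM in induced libraries. The induced libraries lay close together at the low end of the uninduced range, and the overlap came from uninduced replicate 1. The log2 change of Spred1 was -0.45 (95% interval -1.04 to 0.14, limma adjusted p 0.302), and -0.064 after rescaling.

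The nuclear phosphatases Dusp1, Dusp2, Dusp4 and Dusp5 are products of rapidly induced genes. Dusp1, which inactivates p38 and JNK as well as ERK, was at 171, 192 and 178 TPM in uninduced libraries and at 181, 230 and 213 TPM in induced libraries. Induced replicate 1 fell inside the uninduced range and the other induced libraries lay above it. Its log2 change was 0.20 (SE 0.15, 95% interval -0.14 to 0.53, limma adjusted p 0.425). After median-of-ratios scaling Dusp1 was at 143, 151 and 168 scaled TPM in uninduced and 204, 279 and 226 in induced libraries, with no overlap. On that scale its log2 change was 0.61 (95% interval 0.28 to 0.93) with a limma adjusted p of 0.0429, where 2.88% of all tested genes were called higher. Dusp1 also passed after quantile normalization (adjusted p 0.0472) and after rescaling to nuclear protein-coding genes (adjusted p 0.0157), and in none of the 6 median-of-ratios fits with a library left out (adjusted p 0.0610 to 0.128), an alternative chosen after seeing the data. The gene row is ENSMUSG00000024190 (chr17:26505590-26562128, minus strand), whose GENCODE model spans 56539 bases against 2882 in RefSeq. The longer span overlaps Ergic1 on the opposite strand, which was at 14.7 to 45.0 TPM, and whether reads were counted by strand was not given in the sources used here.

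Dusp2 (ENSMUSG00000027368, chr2:127336159-127338376, plus strand), a nuclear phosphatase first known from activated lymphocytes, was at 28.8, 40.4 and 30.9 TPM in uninduced and 32.6, 27.1 and 49.4 TPM in induced libraries. The induced libraries held both the lowest and the highest value. The log2 change was 0.092 (95% interval -0.48 to 0.67, limma adjusted p 0.850). Dusp4 (ENSMUSG00000031530, chr8:34807297-34819894, plus strand) was at 15.0, 13.4 and 11.5 TPM in uninduced and 18.0, 10.5 and 16.7 TPM in induced libraries, again with both extremes among the induced ones. Its log2 change was 0.14 (95% interval -0.48 to 0.75, limma adjusted p 0.782). After median-of-ratios scaling neither Dusp2 (0.49, adjusted p 0.235) nor Dusp4 (0.52, adjusted p 0.255) passed, although their groups no longer overlapped, which on that scale held for 13.6% of all tested genes with induced libraries higher and 14.3% with them lower. Dusp5 (ENSMUSG00000034765, chr19:53529109-53542431, plus strand), a nuclear phosphatase selective for ERK, was at 4.71, 11.0 and 3.53 TPM in uninduced and 3.95, 6.01 and 5.72 TPM in induced libraries. All induced values lay inside the uninduced range, whose upper end was uninduced replicate 2. The log2 change of Dusp5 was -0.14 (95% interval -1.05 to 0.78, limma adjusted p 0.860), and 0.21 after rescaling.

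Dusp6 (ENSMUSG00000019960, chr10:99263231-99267489, plus strand) encodes the cytoplasmic ERK phosphatase and is widely read as a marker of ERK activity. It was at 15.7, 26.3 and 14.2 TPM in uninduced and 14.7, 25.1 and 18.3 TPM in induced libraries. The induced values lay within the uninduced range. Its log2 change was 0.062 (95% interval -0.61 to 0.73, limma adjusted p 0.917), and 0.45 (95% interval -0.19 to 1.09, adjusted p 0.410) after median-of-ratios scaling.

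Of the transcription factor genes, Etv5 (ENSMUSG00000013089, chr16:22381309-22439719, minus strand) was at 5.86, 8.24 and 5.38 TPM in uninduced and 9.64, 3.84 and 7.32 TPM in induced libraries. Both the lowest and the highest value were again among the induced libraries. Its log2 change was 0.028 (95% interval -0.79 to 0.84, limma adjusted p 0.971). Etv4 (ENSMUSG00000017724, chr11:101769742-101785371, minus strand), its close relative, was listed at 0 in all 6 libraries, so no fold is given. TPM keep no sequencing depth, and no detection limit can be attached to that 0.

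**Figure D1:**
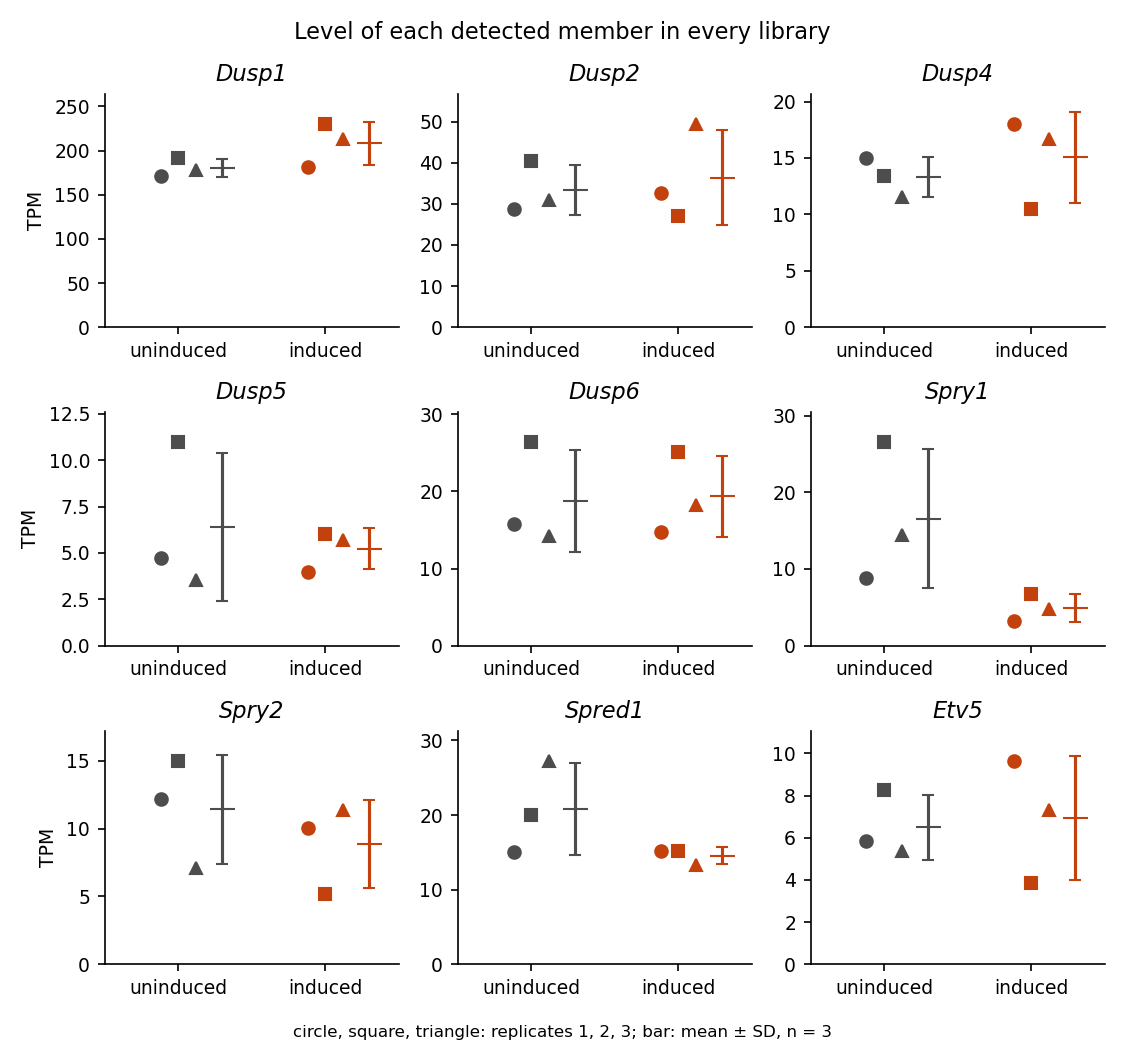
TPM of each of the 9 detected genes in every library (vertical axis from 0, scaled per gene; circle, square and triangle are replicates 1, 2 and 3; the bar is the mean ± SD, n = 3). Spry1 is the panel without overlap, from 8.80 to 26.5 TPM in uninduced and from 3.16 to 6.79 TPM in induced libraries.

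The levels of the 9 genes were ordered alike in both groups at the top and mixed below. Averaged over the 6 libraries, Dusp1 was highest at 194 TPM, and its lowest library (171 TPM) lay above every value of the other members. Dusp2 followed at 34.9 TPM, with its lowest library (27.1 TPM) just above the highest Dusp6 value (26.3 TPM) and just below the highest Spred1 value (27.3 TPM). Dusp6 (19.1 TPM), Spred1 (17.7 TPM), Dusp4 (14.2 TPM), Spry1 (10.7 TPM), Spry2 (10.1 TPM), Etv5 (6.71 TPM) and Dusp5 (5.81 TPM) formed a series in which each overlapped its neighbour across libraries. Etv4 was last. Dusp1 ranked between the 97.0th and the 98.2nd percentile of the tested genes in every library, and Spry1 between the 46.0th and 75.4th in uninduced and the 27.4th and 48.7th in induced libraries.

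The plot of changes with intervals sets the members on both scales. Of the 9 tested members, 7 had a log2 change above that of the median tested gene and 5 had one above 0. Their median log2 change was 0.028 against -0.35 over all genes tested, and after median-of-ratios scaling it was 0.38 against 0.0032. On that scale 1 member was called higher and 0 lower, where 5.98% of all tested genes were called, 2.88% higher and 3.1% lower. No test of the set was made, and the intervals of the 8 members not called on the deposited scale all include both 0 and the median gene's change, except that of Dusp1, which lies above the latter.

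**Figure D2:**
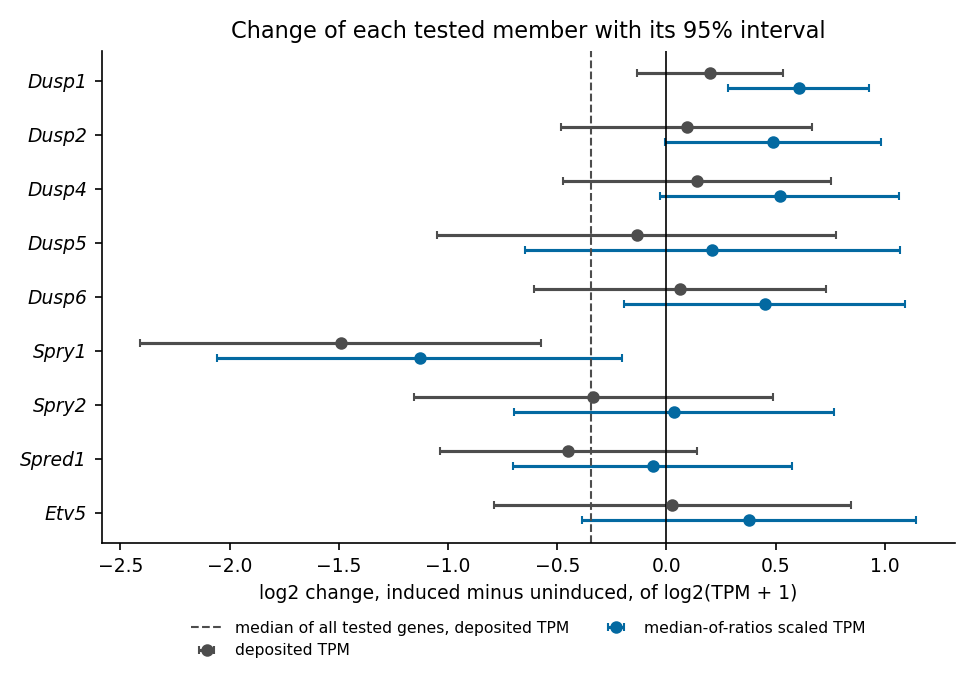
Log2 change (induced minus uninduced, of log2(TPM + 1)) of the 9 tested genes with 95% intervals, on deposited TPM (grey) and after median-of-ratios scaling (blue); the dashed line is the median of all tested genes at -0.35. Spry1 lies lowest on both scales, at -1.49 and -1.13, and the Dusp1 interval moves clear of 0 with the rescaling.

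A ratio of a pair of genes within a library does not depend on the scale of that library, so the 36 pairs of tested members were compared as ratios of TPM. The groups did not overlap for 6 pairs, 5 of them with Spry1. The ratio of Dusp1 to Spry1 was 19.5, 7.24 and 12.4 in uninduced and 57.4, 33.9 and 44.7 in induced libraries, a difference of 1.88 log2 units. All induced libraries lay above all uninduced ones. The ratio of Dusp6 to Spry1 was 1.79, 0.995 and 0.985 in uninduced and 4.66, 3.70 and 3.85 in induced libraries, a difference of 1.75 log2 units. Dusp2 and Dusp5 also stood apart relative to Spry1, by 1.78 and 1.54 log2 units, and Spry1 relative to Spred1 by -1.21. The ratio of Spry1 to Spry2 was 0.723, 1.77 and 2.03 in uninduced and 0.313, 1.31 and 0.418 in induced libraries, which overlap (exact permutation p 0.2), so a difference between the responses of the Sprouty genes was not shown. Without Spry1, 1 of 28 pairs stood apart, Dusp1 to Spred1, at 11.4, 9.56 and 6.54 against 11.9, 15.2 and 16.0. In an exact permutation test, two-sided, these 6 pairs reached p = 0.1, below which a design of 3 and 3 libraries cannot go. The Benjamini-Hochberg adjusted p over the 36 pairs was 0.6, so none passed. The pairs share genes and libraries, and this comparison was chosen after the values were seen.

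**Figure D3:**
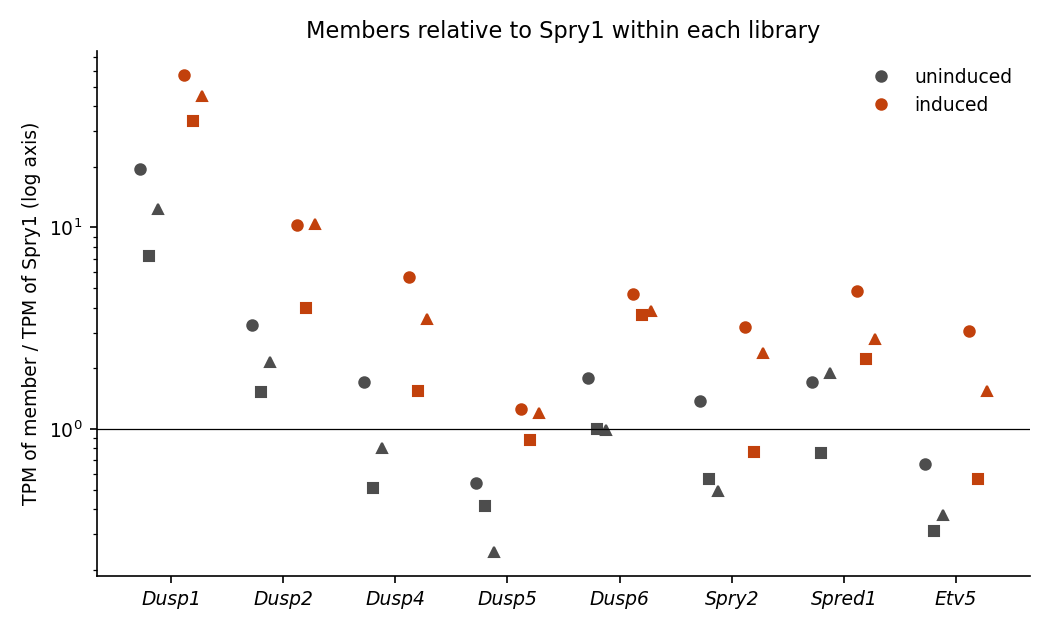
Ratio of each member's TPM to that of Spry1 within each library, on a log axis (grey uninduced, orange induced; circle, square and triangle are replicates 1, 2 and 3). The Dusp1 ratios run from 7.24 to 19.5 in uninduced and from 33.9 to 57.4 in induced libraries, while the Dusp4, Spry2 and Etv5 ratios overlap between the groups.

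The members also varied between libraries of one group. Uninduced replicate 2 held the highest uninduced value for 7 of the 9 members, all but Dusp4 and Spred1, and for 6 of 9 after median-of-ratios scaling. That library also had the highest nuclear protein-coding share, 32.9% of its TPM. Among the induced libraries, replicate 2 held the highest value for Dusp1, Dusp5, Dusp6 and Spry1 and the lowest for Dusp2, Dusp4, Spry2 and Etv5. The same 4 genes were highest and the same 4 lowest there after rescaling, when Spred1 joined the former. The labels do not say whether libraries with the same replicate number are related.

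Genes with a pattern most like Dusp1 over the 6 libraries, by Pearson correlation of log2(TPM + 1), were Wdfy2 (r = 0.996), Dlgap4 (r = 0.992) and Eya1 (r = 0.988). Those most like Spry1 were Brpf1 (r = 0.998), Rbm15b (r = 0.995) and Ngdn (r = 0.993). These are descriptions over 6 libraries that share their scale, and 12 and 108 genes, respectively, exceeded an r of 0.95.

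The rest of the pathway was described from lists chosen by function. Of the closest relatives of the members, 5 of 10 reached the expression minimum (Dusp7, Dusp10, Dusp16, Spred2 and Spred3) and 0 were called, at limma adjusted p with 0 of 5 under an unadjusted p of 0.05 and 0 after median-of-ratios scaling. Spry4, a further Sprouty gene, stayed under the minimum, at 1.10, 3.07 and 0.112 TPM in uninduced and 0, 0.232 and 0 TPM in induced libraries. Dusp8 and Spry3 were listed at 0 throughout.

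Upstream, 2 of 13 tested receptors were called lower on the deposited scale and 0 higher, with a median log2 change of -0.40 over the list. Kit, the stem cell factor receptor, was at 142, 232 and 143 TPM in uninduced and 103, 92.3 and 91.6 TPM in induced libraries, a log2 change of -0.81 (limma adjusted p 0.0354). The groups did not overlap, and uninduced replicate 2 stood highest. The Kit call was lost after rescaling (-0.40, adjusted p 0.224), and it held in 1 of the 6 fits without a library, that without uninduced replicate 3 (adjusted p 0.0448). After rescaling 1 receptor was called lower and 2 higher. The latter were Csf3r and Csf2rb, cytokine receptor genes named after their values were seen, at 0.94 (limma adjusted p 0.0175) and 1.22 (adjusted p 0.0406).

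Inside the cascade, 0 of 15 tested core genes were called with limma on either scale, and 3 had an unadjusted p under 0.05. The ERK gene Mapk3 had a log2 change of -0.37 (limma adjusted p 0.232), and the MEK genes Map2k1 and Map2k2 had -0.79 (adjusted p 0.0808) and -0.24 (adjusted p 0.514). For Mapk3 and Map2k2 the sign turned after rescaling, to 0.024 and 0.16. The median change of the core genes was -0.45, close to that of all genes. Likewise 0 of 11 tested Ras activators and adaptors and 0 of 12 Ras and Raf inhibitors were called on either scale, with medians of -0.36 and -0.24 and with 2 and 3 genes at an unadjusted p under 0.05. Of 15 tested p38 and JNK module genes 0 were called with limma on the deposited scale, with 3 at an unadjusted p under 0.05. After rescaling 1 was called, Mapk12, a p38 isoform named after its values were seen, at 1.60 (adjusted p 0.0378).

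Downstream, 2 of 15 tested ERK substrates and kinases were called lower and 0 higher. They were Cic, at -0.96 (limma adjusted p 0.00806), and Erf, at -1.01 (limma adjusted p 0.0463), both transcriptional repressors that ERK inactivates. Cic was at 69.1, 78.1 and 67.9 TPM in uninduced and 35.8, 35.7 and 37.5 TPM in induced libraries, clearly apart. Neither passed after median-of-ratios scaling, with limma adjusted p of 0.0566 and 0.187, or after quantile normalization, with 0.0562 and 0.182. After rescaling to nuclear protein-coding genes Cic passed (limma adjusted p 0.0450) and Erf did not (0.184). Erf was also lost when any single library was left out.

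Other transcripts that ERK induces were measured too. Of 12 tested targets outside the 10 genes, 5 were called lower and 0 higher, with a median log2 change of -0.38. Egr1, an immediate early zinc finger factor, was at 121, 140 and 125 TPM in uninduced and 26.4, 26.5 and 29.5 TPM in induced libraries, a log2 change of -2.18 (limma adjusted p 0.000197), and -1.78 after rescaling. Ccnd1, a D-type cyclin, changed by -1.55 (limma adjusted p 0.0227), Myc by -1.46 (adjusted p 0.0120) and Fosb by -0.70 (adjusted p 0.0232). The fifth, Fos, was named after its values were seen, at -0.67 (limma adjusted p 0.0210). After median-of-ratios scaling Egr1 and Myc (adjusted p 0.0415) remained lower, Ccnd1, Fosb and Fos did not pass, and Ier5, named after its values were seen, was called higher at 1.32 (adjusted p 0.0367). Leaving out a library lost the call of Myc in 3 of 6 cases (uninduced replicate 2 and induced replicates 1 and 2). Ccnd1 passed only without uninduced replicate 3 or induced replicate 1, and Fosb only without uninduced replicate 3 or induced replicate 3. The targets of the set and those outside it were not compared by a test.

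Many of these genes also respond when tissue is dissociated, and their mRNAs are short-lived. Of 13 tested dissociation response genes 5 were called lower and 0 higher, led by Nr4a1 (-3.82, limma adjusted p 0.000197), Egr1, Jun (-0.87, adjusted p 0.00507) and Fosb, with Fos as the fifth. After rescaling 3 were called lower, namely Nr4a1, Egr1 and Jun (-0.46, adjusted p 0.0294), and 1 higher, Socs3, named after its values were seen (limma adjusted p 0.0429). Their summed level was 2008 to 2515 TPM in uninduced and 1357 to 1528 TPM in induced libraries. Its part in the values of the members was not tested. Of 6 genes for factors that bind AU-rich elements in short-lived mRNAs, Zfp36l1, a decay factor, rose by 1.43 (limma adjusted p 0.0301), and Hnrnpd and Khsrp fell by 1.35 (adjusted p 0.00346) and 0.79 (adjusted p 0.0165) on the log2 scale. Khsrp did not pass after rescaling (adjusted p 0.161), nor without induced replicate 2 or 3, and the Zfp36l1 call held in 1 of the 6 fits without a library, that without uninduced replicate 3.

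**Figure D4:**
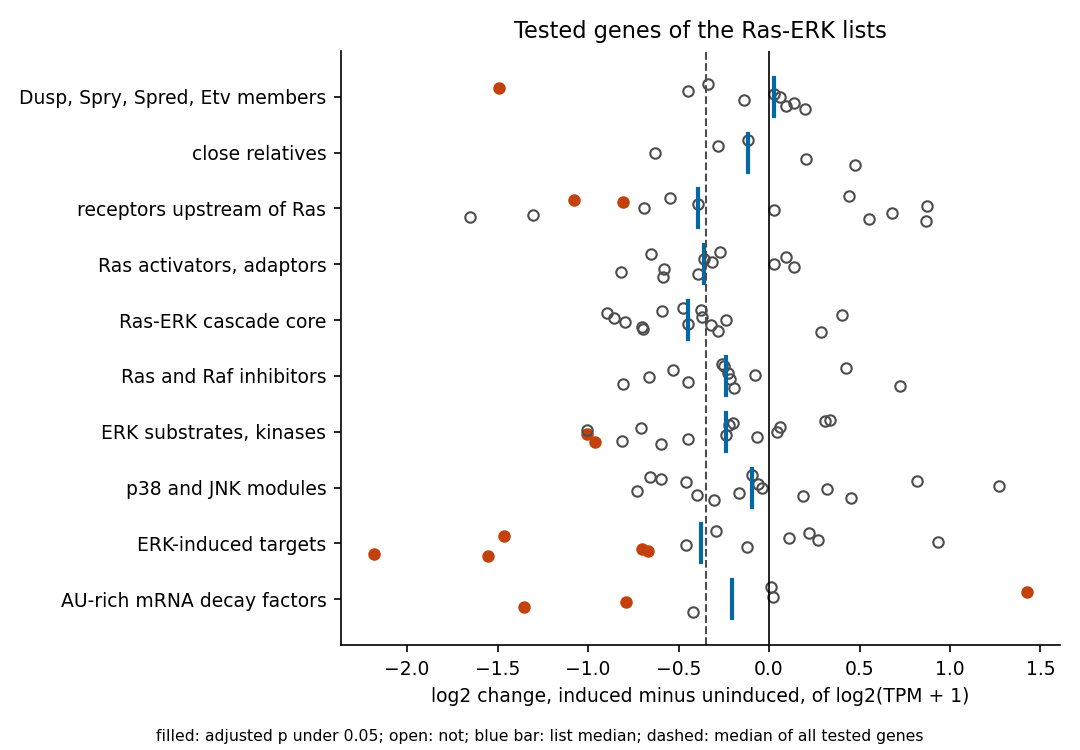
Log2 change (induced minus uninduced, of log2(TPM + 1)) of every tested gene in 10 lists of the Ras-ERK pathway (filled orange: limma adjusted p under 0.05; blue bar: list median; dashed line: median of all tested genes at -0.35). Spry1 is the filled point among the members, and Egr1 at -2.18 is the lowest point of all lists shown.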

How the data were processed

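Total RNA was sequenced as paired reads from stranded pico-input libraries on a NovaSeq instrument, per the labels' protocols. The deposited values are TPM in one table with a column per library, and the submitters' processing notes name HISAT2, StringTie, DESeq2 and bcl2fastq and the build GRCm38, with no version or role. Which annotation was used and whether reads were counted by strand were not given in the sources used here. The deposited table also has a GC content in percent per gene, per the file headers, which was not used. TPM keep no depth, so the depth and any counting interval are unknown. Samples were grouped by title.

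Rows were summed per gene ID (60496 rows, 55471 IDs). log2(TPM + 1) was tested with limma 3.58.1 in R 4.3.3, with a variance trend, over the 13470 genes averaging 1 TPM or more, two-sided, with Benjamini-Hochberg adjustment over all of them and a threshold of 0.05. With this pseudocount the fold changes of weakly expressed genes are understated. The fit was tested on simulated data. The members, lists and tests were chosen with earlier results of these data known. All members are named. Of each other list, up to 4 called genes with non-overlapping groups and the largest change are named, and Kit, Mapk3, Map2k1 and Map2k2 always; some genes that this rule names are not reported here. Coordinates are GENCODE M21's and promoters RefSeq's (GRCm38.p6), matched by gene ID and symbol. Alternatives were pseudocounts of 0.1 and 5 TPM, no expression minimum, a minimum of 5 TPM on average, rescaling by median-of-ratios, quantiles or protein-coding totals, no variance trend, a replicate block, the first of repeated rows, and leaving out each library. Leaving out libraries on the median-of-ratios scale, the alternatives for genes other than the members, and the ratios between members were chosen after seeing the data.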

Additional observations from a re-analysis of the deposited data

How the results depend on the processing

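The 1549 genes called (1375 lower) became 752 without the expression filter, 806 (418 lower) by median-of-ratios, 814 by quantiles, 886 by protein-coding totals and 767 without the variance trend. Leaving out single libraries gave 573 to 1198. With the replicate block 902 passed. Same-numbered libraries are not known to be related, and their deviations correlated at -0.015 to 0.021. The block kept Spry1 as the one member called (adjusted p 0.0304). The count of members called, 1, was 0 with a pseudocount of 5 TPM (Spry1 at -1.06, adjusted p 0.0540), without the filter (adjusted p 0.147) and without the trend (adjusted p 0.0824), and from 0 to 1 over the fits that left out a library. Under median-of-ratios, quantile and protein-coding rescaling it was 1 with Dusp1 in place of Spry1, which was then at -1.13, -1.14 and -1.20. In these 3 settings the sign turned for Spry2 (0.034, 0.012 and 0.064), Dusp5 (0.21, 0.21 and 0.28), Mapk3 (0.024, 0.026 and 0.054) and Map2k2 (0.16, 0.15 and 0.19). The median of all genes was about 0 in the same settings. When a library was left out the log2 change ranged from -0.15 to 0.28 for Dusp2, from -0.43 to 0.27 for Dusp5, from -0.13 to 0.32 for Dusp6 and from -0.22 to 0.35 for Etv5. The cause of these and of other differences was not tested. Leaving out libraries aside, 46 results for other named genes lost their call and 1 gained one. Unknown depth limits every statement on low genes.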
